A study of Mus musculus with 20 samples.

Results

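A set of 10 genes used as markers of macrophages and monocytes was followed through the RNA sequencing of the temporomandibular joint (TMJ), which joins the mandible to the temporal bone. They were chosen by name from the 54532 genes of the count table, and all 10 passed the filter on low counts. Cd68, Adgre1 and Msr1 were read as markers of macrophages in general, Lyz2, Cd14 and Ly6c2 as genes of monocytes, and Mrc1, Cd163, Lyve1 and Folr2 as genes of resident-type macrophages. All 20 mice, of both sexes, carried Loxl2 alleles flanked by loxP sites and a CreERT2 recombinase driven from the aggrecan gene (Acan-Cre; Loxl2 fl/fl). The 8 Control mice were given vehicle and the 12 LOXL2_KO mice tamoxifen, from 6 months of age, and the condylar head with part of its subchondral bone was taken 4 months after the first injection. Tamoxifen therefore induces the deletion of Loxl2, the lysyl oxidase-like enzyme that cross-links collagen, in cells that express aggrecan. The markers studied here are genes of other cells, and the drug and the deletion cannot be told apart in this design.

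Macrophages in joints come from resident cells of the synovial lining and sublining and from blood monocytes that enter the tissue. Monocytes carry high levels of surface Ly6C and the lipopolysaccharide co-receptor CD14, while long-lived tissue macrophages carry the mannose receptor, the haemoglobin scavenger receptor CD163, LYVE1 and the folate receptor FOLR2. In bone the same lineage gives osteoclasts, which share CD68 and other lysosomal proteins with macrophages but lose F4/80, and LYVE1 is also a hyaluronan receptor of lymphatic endothelium. Because the samples were bulk tissue, fewer cells of a type and less RNA per cell cannot be told apart.

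The promoter regions of 4 of these genes are shown because myeloid genes are controlled through purine-rich sites of the PU.1 type. Each runs from 250 bases before to 50 bases after a RefSeq transcription start on GRCm38.p6, 5′ to 3′ on the strand of the gene, with capitals marking GAGGAA or its reverse complement TTCCTC. They are Cd68 at chr11:69666121-69666420 (minus strand), Mrc1 at chr2:14229164-14229463 (plus strand), Ly6c2 at chr15:75111922-75112221 (minus strand) and Lyz2 at chr10:117282223-117282522 (minus strand).
Cd68: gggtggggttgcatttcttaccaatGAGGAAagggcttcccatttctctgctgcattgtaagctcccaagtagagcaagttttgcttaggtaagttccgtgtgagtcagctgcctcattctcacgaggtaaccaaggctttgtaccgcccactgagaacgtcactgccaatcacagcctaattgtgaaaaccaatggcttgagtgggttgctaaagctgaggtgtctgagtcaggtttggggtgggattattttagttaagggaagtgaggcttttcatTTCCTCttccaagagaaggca
Mrc1: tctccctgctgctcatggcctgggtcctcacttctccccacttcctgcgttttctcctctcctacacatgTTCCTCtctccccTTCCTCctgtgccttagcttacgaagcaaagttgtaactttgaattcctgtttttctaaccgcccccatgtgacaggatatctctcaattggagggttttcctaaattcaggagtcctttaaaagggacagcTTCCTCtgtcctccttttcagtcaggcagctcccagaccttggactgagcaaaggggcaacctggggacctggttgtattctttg
Ly6c2: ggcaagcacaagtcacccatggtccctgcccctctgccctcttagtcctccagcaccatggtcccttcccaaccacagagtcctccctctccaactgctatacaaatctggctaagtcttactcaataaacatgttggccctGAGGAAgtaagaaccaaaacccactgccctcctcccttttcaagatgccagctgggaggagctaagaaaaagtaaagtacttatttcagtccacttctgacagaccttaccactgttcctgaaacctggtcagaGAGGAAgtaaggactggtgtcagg
Lyz2: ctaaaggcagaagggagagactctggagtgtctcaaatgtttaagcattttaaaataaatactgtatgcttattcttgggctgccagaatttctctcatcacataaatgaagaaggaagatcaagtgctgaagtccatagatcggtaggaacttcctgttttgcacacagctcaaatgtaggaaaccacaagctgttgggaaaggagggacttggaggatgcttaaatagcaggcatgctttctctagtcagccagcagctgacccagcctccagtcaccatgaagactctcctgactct
GAGGAA was found 2 times in the Cd68 window, 3 times in Mrc1 and 2 times in Ly6c2, and it was not in the windows of Lyz2, Cd163 or Folr2. Both matches of Ly6c2 extended to the longer GAGGAAGT, which contains GAGGAA. Over all 32851 RefSeq promoter windows of this length, 28.3% held GAGGAA and 3.2% held GAGGAAGT on either strand, so a match to the shorter motif was common.

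The libraries held 11153820 to 27045668 counts assigned to genes. Values below are CPM, the counts of a gene per 1000000 counts of its library after TMM scaling, and 3 counts amount to 0.0964 to 0.246 CPM. Loxl2 itself averaged 64.5 ± 30.9 CPM in the 8 control and 101 ± 26.9 CPM in the 12 knockout libraries (± SD). Its log2 fold change was 0.64 (SE 0.28, adjusted p = 0.101 by the edgeR quasi-likelihood test). The Loxl2 level in this bulk tissue therefore did not show the deletion, and knockout here means the libraries labelled so. The study reported less LOXL2 protein by immunohistochemistry in the knockout mice, which these RNA counts do not test. Acan separated 5 libraries from the rest. It was 2.22 to 13.8 CPM in control replicates 6 and 8 and knockout replicates 4, 5 and 7, against 48.9 to 276 CPM in the other 15. In 4 of these 5 libraries Prg4, which encodes lubricin of the synovial lining and cartilage surface, reached 1550 to 3140 CPM, and control replicate 8 had 59.6 CPM of Prg4 and 1.68 CPM of Col2a1. The other 15 libraries held 59 to 414 CPM of Prg4. The tests of the markers, the gene pairs, the correlations and the lists are therefore also given without these 5 libraries. Skeletal muscle genes (9 in the list) summed to 42300 to 154000 CPM in control and 29900 to 78300 CPM in knockout libraries, and mitochondrial genes took 15.2% to 23.1% of counts in control and 9.06% to 18.3% in knockout libraries. The part of either in the rise of the markers was not tested.

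All 10 markers had a positive log2 fold change in the knockout libraries, and 5 of them rose past an adjusted p of 0.05, which were Cd68, Adgre1, Lyz2, Mrc1 and Folr2. None fell, and 9 of the 10 had an unadjusted p under 0.05. Over all 15984 genes tested, 23% passed that threshold, 12% upwards, which is the share against which the 5 of 10 should be read, and 37% had an unadjusted p under 0.05. The median log2 fold change was 1.27 over the markers and -0.02 over all genes tested. Over all genes that passed, 52.2% were higher in knockout, and with libraries scaled by their totals alone this was 72%. No marker separated the groups completely, while 0.3% of all genes tested did so and 0.213% did so with higher values in knockout. Without the 5 libraries with low Acan, 3 of the 10 markers passed, namely Cd68, Lyz2 and Ly6c2, and 11.6% of the 16311 genes then tested passed, 7.52% upwards. Control replicate 8 alone moved the count over all genes most, from 3673 to 2551 when it was left out.

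**Figure D1:**
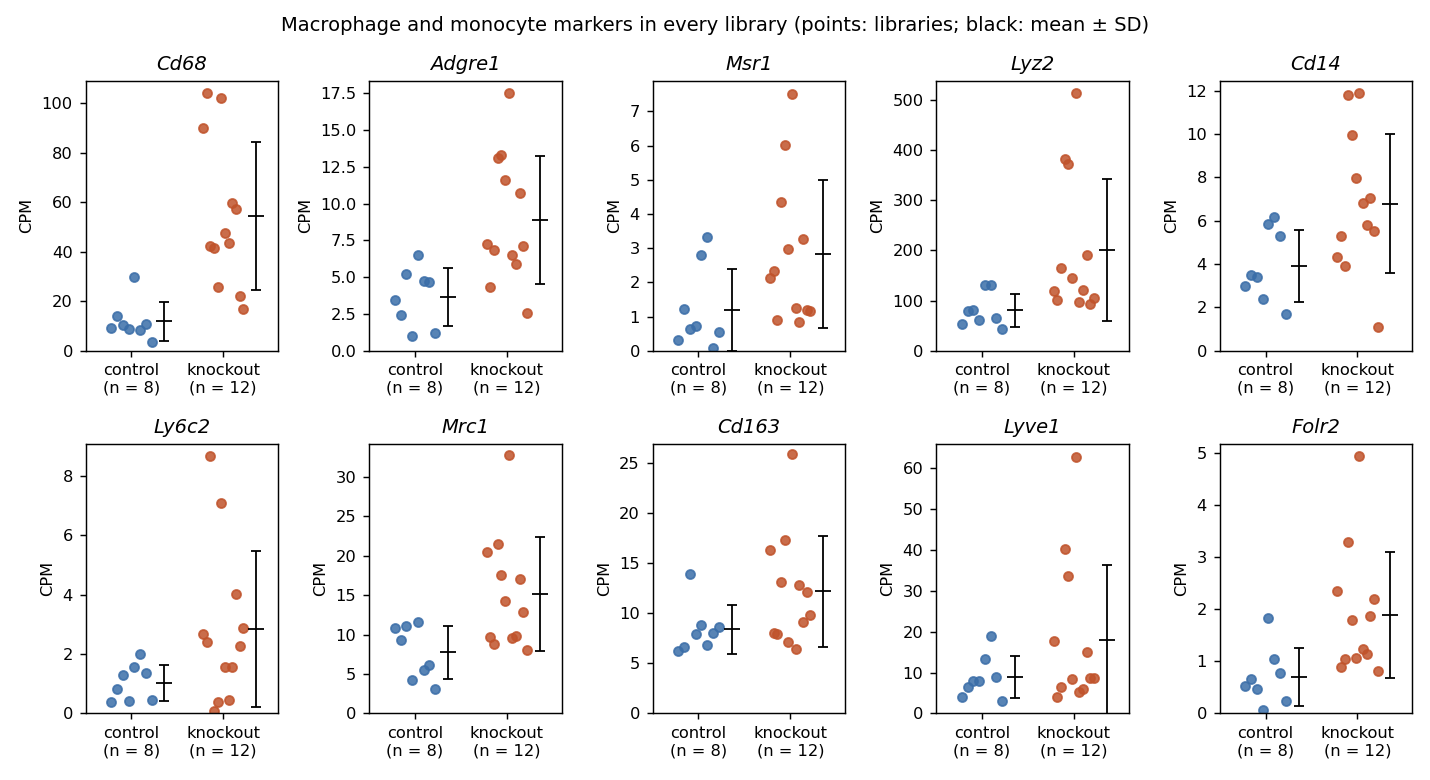
Level of each marker in CPM (vertical axes, each starting at 0) in the 8 control libraries (blue) and 12 knockout libraries (orange). Points are libraries in the order of their replicate numbers, and the black bar is the mean ± SD. Knockout replicate 7 is the highest point in 8 of the 10 panels, and the groups overlap in every panel.

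Cd68 showed the largest rise of the 10. It encodes a lysosomal membrane glycoprotein of macrophages and osteoclasts and lies at chr11:69664213-69666153 on the minus strand. The control libraries ranged from 3.67 to 29.8 CPM with a median of 9.77, and the knockout libraries from 16.8 to 104 CPM with a median of 45.5. All 12 knockout libraries lay above the control median and 9 lay above the highest control. The mean went from 11.8 ± 7.83 to 54.4 ± 29.9 CPM (SD, n = 8 and 12), and Cd68 rose by 2.20 on the log2 scale (SE 0.38, adjusted p = 0.00128). Cd68 was the marker least altered by the libraries with low Acan, with a log2 fold change of 2.13 (adjusted p = 0.00492) without them. It was also the only general macrophage marker still past the threshold there.

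Adgre1 encodes F4/80, the adhesion receptor by which mouse macrophages are usually recognised (chr17:57358691-57483527, plus strand). It ran from 1.01 to 6.47 CPM in control libraries, median 4.04, and from 2.58 to 17.5 CPM in knockout libraries, median 7.18. Of the 12 knockout libraries 11 were above the control median, and only replicate 12 was below it. Adgre1 rose by 1.29 on the log2 scale (SE 0.36, adjusted p = 0.0142), from 3.65 ± 1.97 to 8.90 ± 4.34 CPM (SD, n = 8 and 12). Without the libraries with low Acan the log2 fold change was 0.87 and did not pass (adjusted p = 0.125).

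Msr1 encodes scavenger receptor A, which takes up modified lipoproteins (chr8:39581685-39642673, minus strand). Its counts were low, from 1 to 48 in control and from 17 to 152 in knockout libraries. In CPM it ranged from 0.0647 to 3.32 in control and from 0.827 to 7.51 in knockout, with all 12 knockout libraries above the control median of 0.679. The log2 fold change was 1.25 (SE 0.56) and did not pass (adjusted p = 0.108). Controls 2, 5 and 6 at 1.21, 2.79 and 3.32 CPM lay within the knockout range. Leaving out control replicate 6 alone, of the 20 libraries, brought it past the threshold (1.67, adjusted p = 0.0469), and it was 0.92 (adjusted p = 0.305) without the 5 libraries with low Acan.

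Among the monocyte genes, Lyz2 rose and Cd14 and Ly6c2 did not pass the test. Lyz2 encodes lysozyme of macrophages, monocytes and granulocytes (chr10:117277331-117282321, minus strand). Its level ran from 43.8 to 130 CPM in control libraries, median 72.0, and from 93.2 to 514 CPM in knockout libraries, median 133. All 12 knockout libraries exceeded the control median, and the 3 highest were replicates 7, 4 and 5 with 514, 382 and 373 CPM, the same libraries in which Acan was low. Lyz2 averaged 80.4 ± 33.0 CPM in control and 201 ± 141 CPM in knockout (SD, n = 8 and 12), and it rose by 1.32 on the log2 scale (SE 0.35, adjusted p = 0.0115). It was 0.70 without the 5 libraries and still passed (adjusted p = 0.0337). Of the 50-base windows of its transcripts, 15.4% are identical in the neighbouring lysozyme gene Lyz1, which had 2.63 CPM in control and 6.69 CPM in knockout.

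Cd14 ranged from 1.68 to 6.15 CPM in control and from 1.11 to 11.9 CPM in knockout libraries, with medians of 3.45 and 6.30. Knockout replicate 12 held the lowest value of all 20 libraries, while the other 11 knockout libraries lay above the control median. The log2 fold change of 0.80 (SE 0.33) did not pass (adjusted p = 0.0815). It passed at 0.91 without knockout replicate 12 (adjusted p = 0.0158), and it was 0.46 without the libraries with low Acan (adjusted p = 0.389).

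Ly6c2 encodes a form of Ly6C, the surface protein that is high on classical monocytes (chr15:75108158-75111970, minus strand). Control libraries held 0.375 to 2 CPM, median 1.05, and knockout libraries 0.0913 to 8.66 CPM, median 2.34. It differed from the other markers in where it was high. Knockout replicates 3 and 6 led with 8.66 and 7.08 CPM, whereas replicates 4 and 5, near the top for most markers, held 0.0913 and 0.394 CPM. The log2 fold change was 1.46 (SE 0.59, adjusted p = 0.0776), and it passed at 1.90 without the libraries with low Acan (adjusted p = 0.0301). Leaving out knockout replicate 4 or 5 alone also brought it past the threshold (adjusted p = 0.0354 and 0.0466), while the other 18 libraries left out singly did not, and in the 16 libraries with replicate numbers 1 to 8 it was 1.5 (adjusted p = 0.125). Ly6c2 shares 14.4% of its 50-base windows with other genes, mostly with Ly6c1, and Ly6c1 was at 93.5 CPM in control and 96.6 CPM in knockout libraries (log2 fold change 0.05, adjusted p = 0.901). How reads that match both genes were counted was not stated, so the level of Ly6c2 is uncertain.

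Of the resident-type genes, Mrc1 and Folr2 rose, and Cd163 and Lyve1 did not pass the test. Mrc1 encodes the macrophage mannose receptor CD206 (chr2:14229392-14332057, plus strand). It ran from 3.14 to 11.6 CPM in control libraries, median 7.71, and from 8.09 to 32.7 CPM in knockout libraries, median 13.5. All 12 knockout libraries were above the control median and 7 were above the highest control. Mrc1 rose by 0.97 on the log2 scale (SE 0.29, adjusted p = 0.0197), from 7.74 ± 3.35 to 15.2 ± 7.21 CPM (SD, n = 8 and 12). Without the 5 libraries with low Acan the log2 fold change was 0.48 and did not pass (adjusted p = 0.22).

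Folr2 encodes folate receptor beta (chr7:101839988-101857194, minus strand) and had the fewest reads of the resident-type genes, from 1 to 27 counts in control and from 16 to 100 counts in knockout libraries. In CPM the controls ranged from 0.0596 to 1.84 with a median of 0.592, and the knockouts from 0.809 to 4.94 with a median of 1.52. All 12 knockout libraries were above the control median. The log2 fold change was 1.43 (SE 0.45, adjusted p = 0.0267). This call was close to the threshold, and it was lost when control replicate 3, control replicate 8 or knockout replicate 7 was left out (adjusted p = 0.0514, 0.0572 and 0.0502) and without the libraries with low Acan (0.97, adjusted p = 0.196). The antisense gene Gm10602 overlaps the span of Folr2, introns included, over 2784 bases. It had 806 counts over all libraries against 536 for Folr2. How much exon sequence the 2 genes share was not computed. Since the use of strand in counting was not stated, reads from any shared exon sequence cannot be told apart.

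Cd163, whose product clears haemoglobin and haptoglobin complexes (chr6:124304656-124330527, plus strand), had the smallest log2 fold change of the 10. It ranged from 6.23 to 13.9 CPM in control and from 6.44 to 25.9 CPM in knockout libraries, with medians of 7.98 and 11 CPM, and 9 of the 12 knockout libraries were above the control median. The log2 fold change of 0.54 (SE 0.24) did not pass (adjusted p = 0.101). It passed at 0.68 when control replicate 3, the highest control, was left out (adjusted p = 0.0475), and it was 0.22 without the libraries with low Acan (adjusted p = 0.552).

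Lyve1 encodes the hyaluronan receptor of lymphatic vessels and of perivascular macrophages (chr7:110850607-110863239, minus strand), and its spread among knockout libraries was the widest of the markers, with a coefficient of variation of 101%. The controls ranged from 3.14 to 18.9 CPM, median 7.85, and the knockouts from 3.95 to 62.9 CPM, median 8.74. The 3 highest values, 62.9, 40.2 and 33.6 CPM, were those of knockout replicates 7, 4 and 5, and the highest control, replicate 6, was also a library with low Acan and high Prg4. The log2 fold change was 1.04 (SE 0.50, adjusted p = 0.136) over all libraries and 0.16 (adjusted p = 0.799) without those with low Acan. Of 7 lymphatic endothelium genes 1 rose, near the share of all genes tested that rose (12%). It was Nrp2 (log2 fold change 1.36, adjusted p = 0.0063). The lymphatic regulator Prox1 was 1.15 CPM in control and 1.08 CPM in knockout (log2 fold change -0.11, adjusted p = 0.887).

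**Figure D2:**
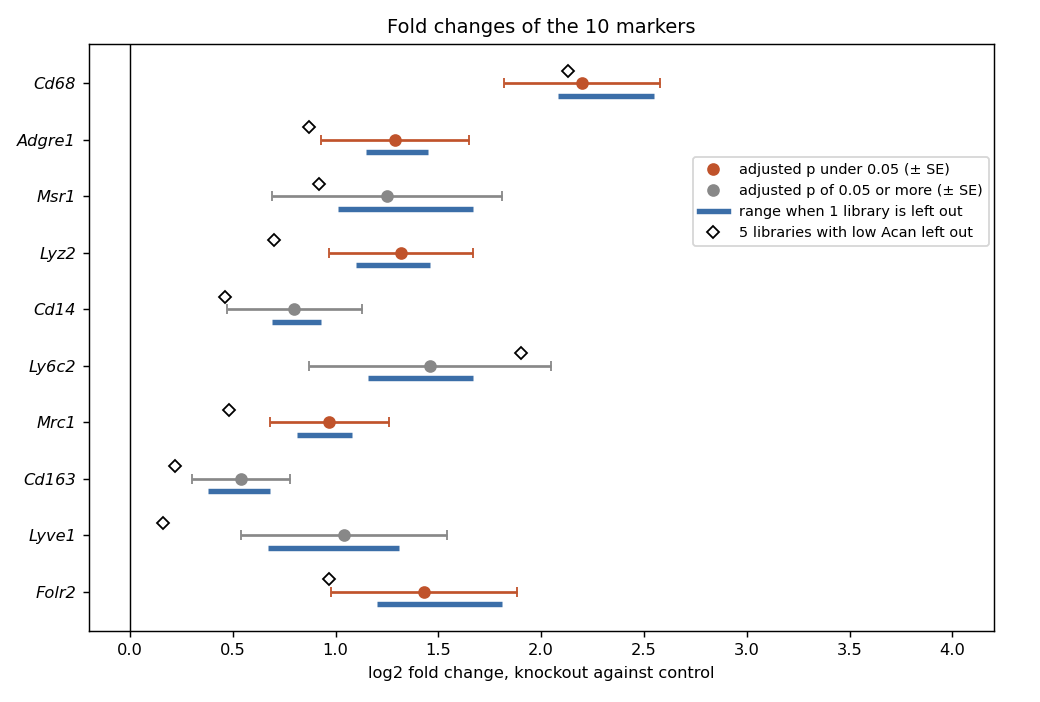
Log2 fold change of each marker, knockout against control (horizontal axis), with its SE (points and bars, orange where the adjusted p was under 0.05), the range when each of the 20 libraries was left out in turn (blue bars) and the value without the 5 libraries with low Acan (open diamonds). All diamonds lie above 0, and Cd68 at 2.13 and Ly6c2 at 1.90 are the farthest to the right.

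Per kilobase of exon, which allows levels to be set side by side between genes, Lyz2 was the most abundant marker in control libraries at 61.1 ± 25.1 CPM per kb, and Cd68 followed at 9.40 ± 6.23. Both gaps in that order were present in all 8 control libraries. Lyve1 (3.02), Cd14 (2.26), Cd163 (1.54), Mrc1 (1.21) and Adgre1 (1.13 CPM per kb) came next, and each exceeded its follower among these 5 in only 5 or 6 of the 8 libraries, so their order lay within the spread. Folr2 (0.452) and Ly6c2 (0.378) stood in that order in 4 of 8 libraries, and Msr1 was lowest at 0.189 CPM per kb. In knockout libraries Lyz2 reached 152 ± 107 and Cd68 43.3 ± 23.8 CPM per kb, and Lyve1 at 6.20 ± 6.25 was above Cd14 in 6 of 12 libraries.

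The libraries differed in which markers were high. Knockout replicate 7 had the highest level of all 20 libraries for 8 of the 10 markers, the exceptions being Cd68, highest in replicate 2, and Ly6c2, highest in replicate 3. Knockout replicates 4 and 5 were among the top 3 libraries for 7 and 6 markers. At the other end, control replicates 1, 4 and 8 were among the lowest 5 libraries for 9, 8 and 8 markers. The libraries highest in Cd68, replicates 2, 6 and 1 with 104, 102 and 90.1 CPM, had 3.95, 8.38 and 17.7 CPM of Lyve1.

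**Figure D3:**
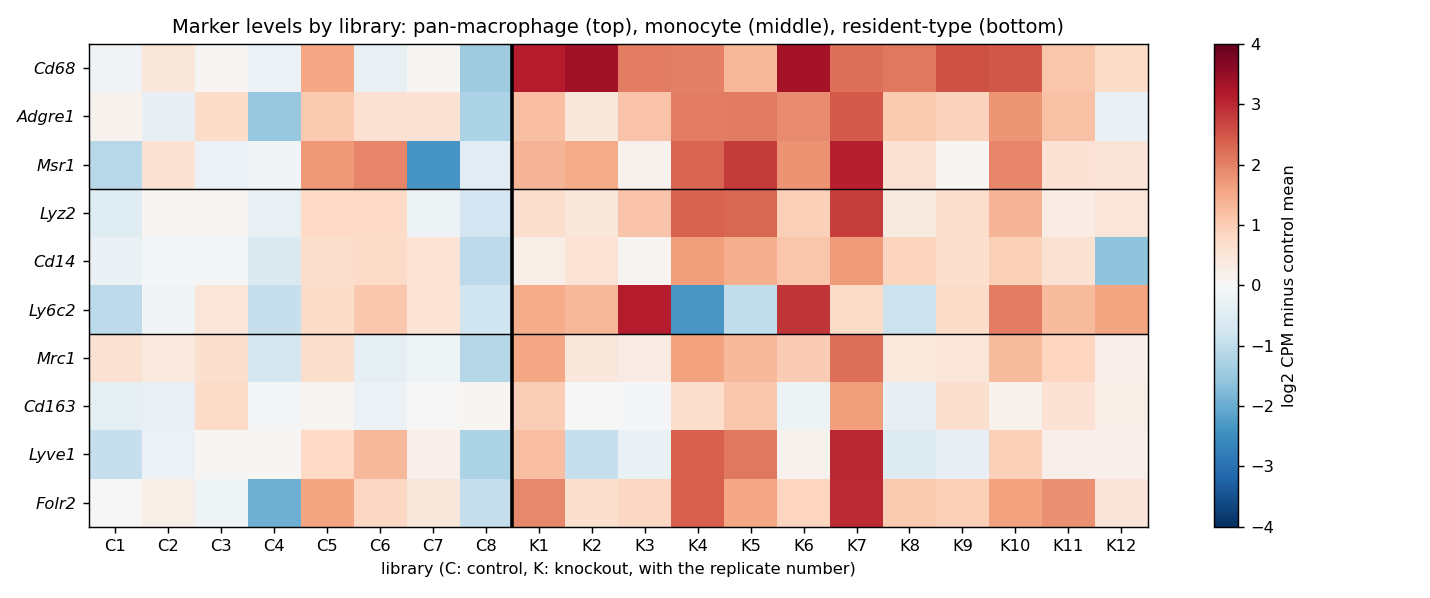
Level of each marker (rows, grouped from the top as general, monocyte and resident-type) in each library (columns, C for control and K for knockout with the replicate number), as log2 CPM minus the mean of the control libraries. K4, K5 and K7 are dark red for Lyz2 and Lyve1, and K4 is blue for Ly6c2.

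Whether resident-type and monocyte genes changed to a different extent was tested on the difference between 2 genes within each library. This was done for the 12 pairs of 1 resident-type and 1 monocyte gene. Pairs with Lyz2 or Cd14 compare genes, not cell types, because both varied with Mrc1 and Lyve1 across the libraries (values below). No pair passed adjustment over the 12 (smallest adjusted p = 0.198, exact permutation test over 125970 assignments, two-sided), and 2 had an unadjusted p under 0.05. Cd163 relative to Lyz2 was lower in knockout by a log2 difference of -0.70 (95% interval -1.32 to -0.07, exact p = 0.0331) and lay below the control median in 10 of 12 knockout libraries. Folr2 relative to Cd14 was higher by 0.73 (interval 0.07 to 1.39, exact p = 0.0304), with 1 of 12 knockout libraries below the control median.

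The other pairs gave intervals that included 0. Mrc1 relative to Lyz2 differed by -0.18 (interval -0.76 to 0.40) and Mrc1 relative to Cd14 by 0.27 (interval -0.37 to 0.91). The 4 pairs with Ly6c2 were the least precise, and for Mrc1 relative to Ly6c2 the difference was 0.05 with an interval from -1.45 to 1.57. Differences of 1 on the log2 scale in either direction lay within that interval. Without the libraries with low Acan, Mrc1, Cd163, Lyve1 and Folr2 relative to Ly6c2 stood at -1.08, -1.36, -1.47 and -0.44, and again no pair passed (smallest adjusted p = 0.156).

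In wider lists, of 17 general macrophage genes 14 rose, none fell, and the median log2 fold change was 1.29. Csf1r, the receptor for the growth factor CSF1, went from 34.5 to 138 CPM (SE 0.38 on the log2 scale, adjusted p = 0.00183). The pan-leukocyte lysosomal protein gene Laptm5 rose by 2.10, and the complement genes C1qa, C1qb and C1qc rose by 1.14, 1.14 and 1.17 on the log2 scale. Of 19 resident-type genes 9 rose, and none fell (median 0.88). They included the bridging ligand gene Gas6 (0.83), the scavenger receptor gene Stab1 (0.60) and the growth factor gene Igf1 (1.29). Selenop (0.02), Maf (-0.34) and F13a1 (0.88) did not pass. Named for their high level, these genes all had a higher mean CPM than Mrc1, Cd163, Lyve1 and Folr2. The cells that held their RNA cannot be told from bulk tissue. Of 15 monocyte genes tested 5 rose (median 0.80), namely Lyz2, Plac8, Vcan, Klf4 and Ifitm3. The chemokine receptor gene Ccr2, which marks recruited monocytes, went from 3.02 to 4.78 CPM and did not pass (log2 fold change 0.66, adjusted p = 0.0988). When the libraries with low Acan were left out, 10 of the 17 general, 1 of the 19 resident-type (Clec10a) and 5 of the 15 monocyte genes rose. The medians were then 0.92, 0.30 and 0.50. Csf1r and Laptm5 were among the 10 general genes that still rose, whereas C1qa, C1qb and C1qc did not pass there. Among all genes tested, 12% rose over all libraries and 7.52% without those with low Acan. The 1 of 19 resident-type genes was near that last share. These lists were drawn up with earlier results of these data known, and the 10 markers are part of them.

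Among 18 scavenger and pattern recognition receptor genes tested, 6 rose and 1 fell. The risers included the endocytic receptor gene Lrp1 (log2 fold change 0.74, adjusted p = 0.0158), Stab1 and Scarb1 (0.37, adjusted p = 0.0482), together with Mrc1, Tlr2 and Clec7a. Cd36, the fatty acid translocase of muscle, fat and macrophages, fell by 0.62 on the log2 scale (adjusted p = 0.0239). Of 11 tested genes closely related to the markers, 2 rose, of which Mrc2, the collagen-binding relative of Mrc1 in fibroblasts and bone cells, went from 79.1 to 187 CPM (log2 fold change 1.24, adjusted p = 0.00233), and Adgre5 rose by 0.38. The lysosomal relatives of Cd68, Lamp1 and Lamp2, were at -0.17 and 0.20 and did not pass. In the 15 libraries with higher Acan, 3 receptor genes and 1 related gene (Mrc2) rose and none fell. Among all genes tested, 12% rose and 11% fell over all libraries, and 7.52% rose in these 15. The counts of related genes were near the shares of all genes.

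Genes of other cells that share these markers were counted in the same way, against the 12% of all genes tested that rose. Of 12 osteoclast genes 11 rose (median log2 fold change 2.64), and their summed level was 209 to 1510 CPM in control and 679 to 8160 CPM in knockout libraries, with Calcr at 0 in some. Acp5, the tartrate-resistant acid phosphatase of osteoclasts, went from 131 to 946 CPM (log2 fold change 2.85, adjusted p = 0.00212). Of 12 neutrophil genes tested 2 rose, Mpo and Prtn3 (median 2.09), with summed levels of 6.74 to 173 and 18.7 to 991 CPM. The defining neutrophil gene Ly6g was too low to be tested and at 0 in some libraries. For lymphatic endothelium the sums were 53.5 to 203 and 120 to 460 CPM, and for dendritic cells, of whose 6 tested genes 1 rose (Itgax), 11.2 to 25.3 and 13.7 to 22.4 CPM. The neutrophil (2 of 12), dendritic (1 of 6) and lymphatic (1 of 7) shares were near that of all genes. All 12 neutrophil genes tested nevertheless had a positive log2 fold change, against 7683 of the 15984 genes tested. In the 15 libraries with higher Acan, 10 of 12 osteoclast, 3 of 12 neutrophil, 1 of 6 dendritic and 1 of 7 lymphatic genes rose. The share of all genes that rose there was 7.52%, and the median of the neutrophil genes was 2.76. The part of these cells in the marker results was not tested.

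In all, 8 pairs of genes were therefore compared across libraries within each group, and 6 of the 16 correlations passed adjustment. Acp5 and Cd68 varied together, with r = 0.98 over the 8 control libraries (exact permutation p = 0.000273, adjusted p = 0.00109, rho = 0.90, permutation p = 0.00456) and r = 0.89 over the 12 knockout libraries (permutation p = 0.00013, adjusted p = 0.000693, rho = 0.94, permutation p = 2e-05). Leaving out the 2 libraries farthest from the median of Acp5 gave r = 0.86 and 0.88, and the control value then no longer passed (adjusted p = 0.0833). Without the libraries with low Acan it was 0.97 in 6 control and 0.95 in 9 knockout libraries. Adgre1 and Cd68, both general macrophage markers, gave r = 0.63 in control (exact permutation p = 0.0944, rho = 0.50, p = 0.216) and 0.18 in knockout libraries (permutation p = 0.573, rho = -0.03, p = 0.938), and neither passed.

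Mrc1 and the other resident-type genes went together in the knockout libraries. For Folr2, r was 0.92 (permutation p = 0.0001, adjusted p = 0.000693, rho = 0.87, permutation p = 0.00038) and 0.84 without the 2 farthest libraries. For Lyve1, r was 0.90 (permutation p = 8e-05, adjusted p = 0.000693, rho = 0.83, permutation p = 0.00149) and 0.90 without the 2 farthest. For Cd163, r was 0.75 (permutation p = 0.00448, adjusted p = 0.0143, rho = 0.71, permutation p = 0.0109) and 0.63 without them, where it no longer passed. In the 9 knockout libraries left when those with low Acan were removed, r was 0.81 for Folr2 and 0.81 for Lyve1 (both adjusted p = 0.0418, exact permutation test) and 0.45 for Cd163 (adjusted p = 0.404). There, leaving out the 2 libraries farthest in Mrc1 lowered r to 0.57 for Folr2 and 0.36 for Lyve1, so that these relations rest in part on those libraries. Mrc1 and Ly6c2 gave r = -0.30 over the 12 knockout libraries (permutation p = 0.343, rho = -0.38, p = 0.219). Such covariation was not particular to resident-type genes. Across the 20 libraries, with each group's mean subtracted, Mrc1 gave r = 0.75 with Folr2, 0.66 with Lyve1 and 0.55 with Cd163. It gave 0.78 with Adgre1, 0.65 with Lyz2 and 0.59 with Cd14. Lyve1 gave 0.90 with Lyz2. Only Ly6c2 gave a negative value with Mrc1 (-0.13). Ly6c2 gave -0.19 with Lyz2 and -0.20 with Cd14, whereas Lyz2 and Cd14 gave 0.69. The genes read as monocyte genes therefore did not vary together as a group. These values are descriptions without a test.

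In control libraries none of the 4 pairs with Mrc1 passed, with r from 0.15 to 0.60. The neutrophil gene S100a8 and Lyz2 gave r = 0.85 in control (exact permutation p = 0.00714, adjusted p = 0.019, rho = 0.81, permutation p = 0.0218) and 0.56 without the 2 farthest libraries, on which it therefore rests, and -0.21 in knockout libraries (permutation p = 0.502, rho = -0.06, p = 0.851). Prox1 and Lyve1 gave -0.31 in control (exact permutation p = 0.494, rho = -0.26, p = 0.536) and 0.45 in knockout (permutation p = 0.139, rho = 0.41, p = 0.193). The difference between the groups in any of these correlations was not tested.

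**Figure D4:**
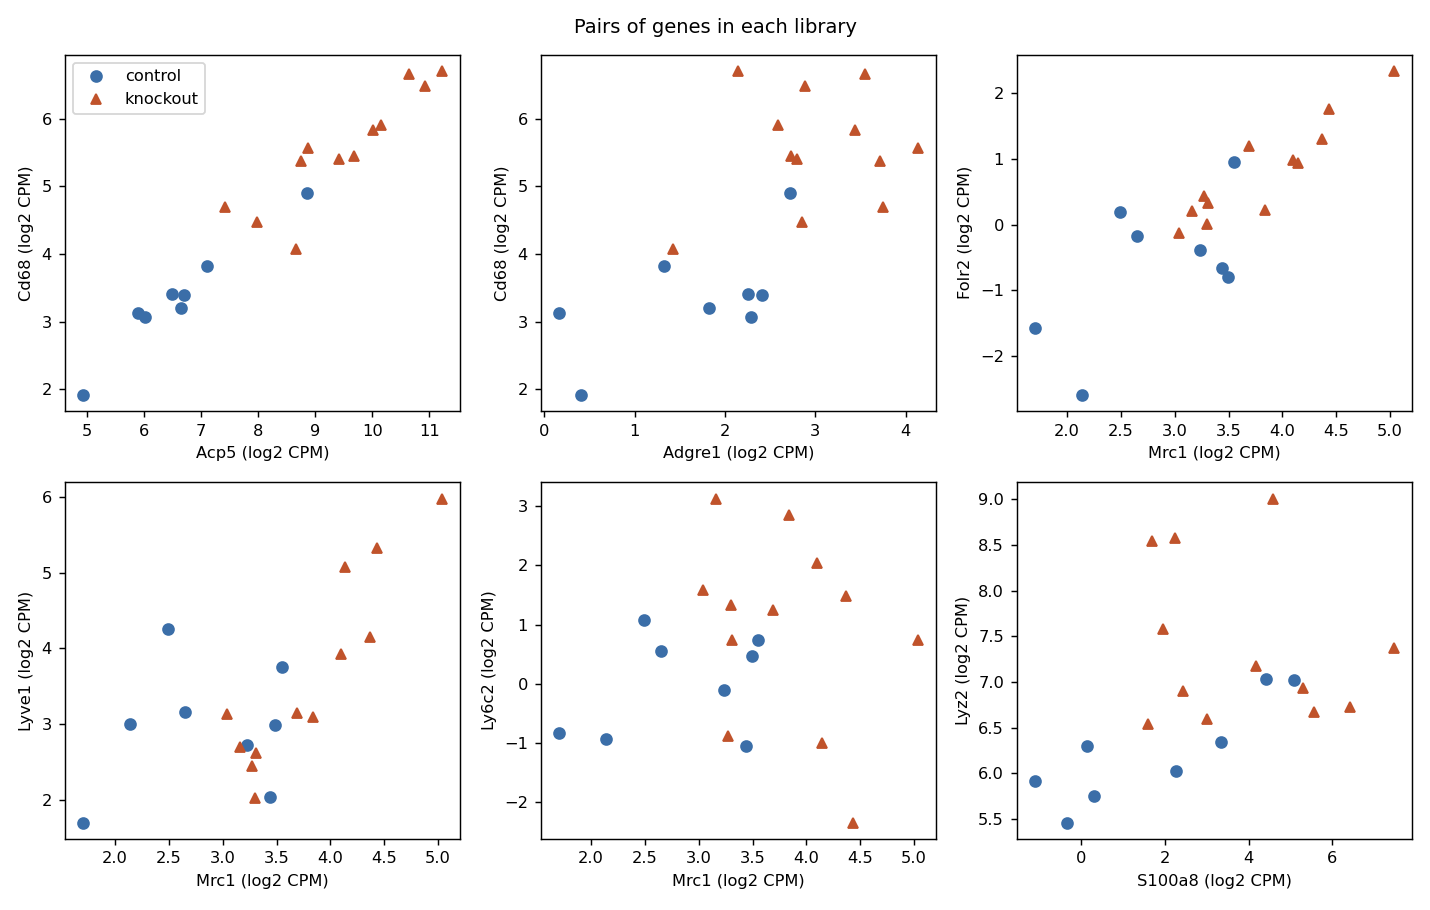
Log2 CPM of 6 pairs of genes in each control (blue circles) and knockout library (orange triangles). Cd68 climbs with Acp5 in both groups (r = 0.98 and 0.89), Folr2 and Lyve1 climb with Mrc1 among the knockout libraries (r = 0.92 and 0.90), and Ly6c2 shows no such rise with Mrc1 (r = -0.30).

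The tested genes most like each marker over the 20 libraries, once the mean of each group was subtracted, differed between markers. These correlations are descriptions, since the libraries share depth and tissue composition across all genes. For Cd68 they were Csf1r (r = 0.98), the lysosomal protease gene Ctsz (0.97) and the leukocyte actin-bundling gene Lcp1 (0.96). For Adgre1 they were Cd33, Hpgds and Tbxas1 (0.87, 0.87 and 0.86), and for Msr1 they were Trem2, Ctss and Ptger3 (0.84, 0.83 and 0.82). Lyve1 lay closest to F13a1 (0.93), Prg4 (0.92) and Cbr2 (0.92), and Lyz2 to Emilin2, the hyaluronan synthase gene Has1 and Medag (each 0.94). Mrc1 was nearest to Scara5 (0.86), Fstl1 (0.86) and Il33 (0.84), and Folr2 to Galnt4, Cd33 and Apbb1ip (0.88, 0.86 and 0.85). Cd163 had no gene above 0.73 (C3 and Zfand6), followed by Ctsl at 0.72. Cd14 went with Carhsp1, Tagln2 and Gas1 (each 0.86). Ly6c2 alone was nearest to genes of granulocyte precursors, the granule protease genes Elane (0.82) and Prtn3 (0.81), followed by I830127L07Rik (0.80).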

How the data were processed

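RNA from 20 mouse TMJ samples was sequenced as paired-end Illumina NovaSeq reads. The authors mapped reads to mm10 and deposited raw counts per Ensembl gene from featureCounts. The aligner, annotation release, use of strand and handling of reads with several positions were not given in the sources used here. Groups and replicate numbers came from the sample titles, and p-values measure the spread between these samples. The labels gave no sex or batch of any library, and the main test had no term for either. Of 54532 genes, 54495 were matched to GENCODE M21 (GRCm38, 1-based positions) for symbols. Promoters were those of RefSeq, and a planned comparison of proteins was not made.

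Counts were filtered with filterByExpr (15984 genes), scaled by TMM and tested with the edgeR 4.0.16 quasi-likelihood F-test in R 4.3.3, two-sided, over all 20 libraries, with Benjamini-Hochberg adjustment over all genes tested and a threshold of 0.05. The DESeq2 1.42.0 Wald test, which the study used, was an alternative. In simulated counts with 200 changed genes at a log2 fold of 1.5, edgeR recovered 83% with 4.6% false calls among 15713 genes. DESeq2 recovered 86% with 11.3% false calls among 15984 genes. The simulation drew each gene independently, without the differences in tissue that libraries shared, so these rates may not hold for the data. Library pairs differed by at least 32.9 chi-square per degree of freedom, so none was a repeat. Gene pairs were compared on log2 CPM (prior count 2) by exact permutation of group labels, and correlations by all 40320 pairings of 8 libraries, all pairings of 6 or 9 libraries, or 100000 resamples. Low depth limits Folr2, Msr1 and Ly6c2, and floors of 3 counts cover counting error only.

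The members and gene lists were chosen with earlier results of these data known. Named genes were the 10 markers, Loxl2, Csf1r, Ccr2, Acp5, S100a8 and Prox1, the genes of each list with the highest mean CPM (up to 8 in macrophage, monocyte and receptor lists, up to 4 in others) and the 3 genes most like each marker. Plac8, Tlr2, Clec7a, Clec10a, Pvalb, Calcr, Ly6g, Mpo, Prtn3, Itgax, Acan, Lyz1 and Gm10602 were named after their values were seen. Alternatives were other scalings, filters, the replicate block, leaving out each library and, chosen after seeing the data, leaving out the 5 libraries with Acan under 15 CPM.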

Additional observations from a re-analysis of the deposited data

Results flagged for a closer look

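In the 8 control libraries, 2 of the 10 markers had a library far from the others by Dixon's test at the 95% level, where chance flags about 1 group in 20. Cd68 was 29.8 CPM in control replicate 5, and the nearest control was at 14 CPM. Cd163 was 13.9 CPM in control replicate 3, and the nearest control was at 8.85 CPM.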

How the results depend on the processing

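Cd68 and Lyz2 passed the threshold under all 9 alternatives and all 20 fits with 1 library left out, and Lyve1 under none. The number of markers past the threshold was 5, from 4 to 6 when 1 library was left out, and 3 without the 5 libraries with low Acan. The number of genes past it was 3673, from 2551 to 4181 with 1 library left out, and 1891 without those 5, of which 64.8% were higher. Scaling by library totals alone moved the median of all genes to 0.12 and gave 3037 genes. Ly6c2 also passed with the DESeq2 test (1.45, adjusted p = 0.0341), which called 4222 genes, and Folr2 was lost without the filter (adjusted p = 0.0517). With the replicate number as a block over 16 libraries, 1786 genes passed (3280 in the same libraries without the block), and 5 markers passed, among them Cd14 (0.97, adjusted p = 0.04) and not Folr2 (1.59, adjusted p = 0.0839), while Ly6c2 was at 0.87 (adjusted p = 0.361). Same-numbered libraries showed little common deviation (correlations from -0.295 to 0.235, over 0.1 in 2 of 8 pairs, and 2 of 8 control libraries closest to their own number). The sample titles give only the number, and this check cannot exclude a pairing.

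No resident-type against monocyte pair passed in any setting. The Lyve1 minus Ly6c2 difference of -0.24 became 0.22 in the 16 libraries, and 0.22 with the replicate block, and ran from -0.69 to 0.05 with 1 library left out. With 1 library left out, Lyve1 minus Cd14 ran from -0.18 to 0.12 and Mrc1 minus Ly6c2 from -0.30 to 0.31. Without the 5 libraries with low Acan, Mrc1 minus Ly6c2 was -1.08 and Folr2 minus Ly6c2 was -0.44. Of the correlations 6 passed, and 3 without the 2 libraries farthest from the median, where r in control turned to -0.10 for Mrc1 with Folr2, -0.50 for Mrc1 with Lyve1 and -0.47 for Mrc1 with Ly6c2, and in knockout to -0.30 for Adgre1 with Cd68. Without the libraries with low Acan, Mrc1 with Lyve1 in control was -0.06, and in knockout Mrc1 with Ly6c2 was 0.20 and S100a8 with Lyz2 was 0.11. None of these reversed values had passed its test, and the cause was not tested.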

Other observations

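Markers of mast cells, which the macrophage lists do not hold, also differed between the groups. Of 6 mast cell genes tested 5 rose, with a median log2 fold change of 3.33, and 5 rose when the libraries with low Acan were left out (median 3.38). Among all genes tested, 12% rose, and 7.52% rose without those libraries. The summed level of the mast cell genes over all libraries was 2.22 to 20.6 CPM in control and 5.82 to 187 CPM in knockout libraries. The mast cell protease genes Tpsb2 and Mcpt4 rose from 0.999 to 14.7 CPM and from 1.36 to 13.9 CPM (adjusted p = 0.00246 and 0.00259), while the growth factor receptor gene Kit was at 4.18 and 5.13 CPM (adjusted p = 0.654). Reads of the near-identical mast cell proteases may be shared among them. No B cell gene among the 5 tested passed the edgeR test, and their median log2 fold change was -0.80.

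Of 7 fibroblast genes 4 rose, among them Col3a1 (log2 fold change 1.41, adjusted p = 0.00144) and Lum (0.91, adjusted p = 0.0351), and of 10 osteoblast and osteocyte genes 5 rose, among them Col1a1 (2.5, adjusted p = 0.00144) and Bglap (2.22, adjusted p = 0.0101), whose reads may be shared with its near-identical neighbours. Of 9 skeletal muscle genes 4 fell and none rose. Without the libraries with low Acan 2 fibroblast genes and 8 osteoblast and osteocyte genes rose, and 1 muscle gene (Pvalb) fell. Among all genes tested, 12% rose and 11% fell over all libraries. Without those with low Acan, 7.52% rose and 665 of 16311 fell.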
